A study of Mus musculus with 5 samples.

Results

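The insulin-like growth factor (IGF) system was examined in newborn mouse sciatic nerves with and without the transcription factor Ebf2. Its members were taken by gene symbol, with earlier results of these data known. They were the probe sets whose single annotated symbol was Igf1, Igf2, Igf1r, Igf2r, Irs1, Irs2 or one of Igfbp2 to Igfbp7. Of these 12 symbols 10 were in the deposited table, each with 1 probe set, out of 9407 named genes and 10361 probe sets in all. The ligand genes Igf1 and Igf2 were not analysed here. Nerves came from Ebf2-/- knockout (KO) pups, set against Ebf2+/+ wild-type (WT) pups, all at postnatal day 2 and on a C57Bl6N background. All pups came from crosses between heterozygous parents, and the labels do not say which part of Ebf2 the allele lacks or how many animals or litters stood behind a pool. Sciatic nerves were pooled by genotype, 12 nerves to a pool, and each pool was read on 1 Affymetrix whole-transcript array, giving KO pools 2 and 4 and WT pools 1, 9 and 11. Values are log2 expression levels, and differences are log2 fold changes of the KO mean (n = 2) over the WT mean (n = 3), positive where KO is higher.

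IGF-1 and IGF-2 are secreted growth factors that act through the tyrosine kinase receptor IGF-1R. The activated receptor phosphorylates the docking proteins IRS-1 and IRS-2, which recruit PI3-kinase and so feed the Akt and mTOR cascade. Secreted IGF binding proteins hold the ligands in the extracellular space, where they can block, store or deliver them, and proteases release the ligands again. In peripheral nerve, IGFs are known to support the survival, motility and myelination of Schwann cells and the growth of axons.

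The labels and the tissue were checked first. Ebf2 read 9.25 and 8.74 in KO pools 2 and 4, against 11.55, 11.14 and 11.40 in WT pools 1, 9 and 11, and fell (log2 fold change -2.37, SE 0.19, limma adjusted p = 4.97e-07). Its call was lost without moderation of the variances (adjusted p = 0.560). With WT pool 1 as the only wild type its log2 fold change was -2.56. Without WT pool 1, without KO pool 2 and without KO pool 4 its log2 fold changes were -2.27, -2.62 and -2.12, and its adjusted p-values were 0.0657, 0.119 and 0.782. Sox10, a transcription factor that marks the Schwann lineage, was named for this check after its value was seen. It read 11.64 and 11.24 in KO pools 2 and 4, against 11.65, 11.64 and 11.65 in WT pools 1, 9 and 11, and did not pass (log2 fold change -0.20, SE 0.17, adjusted p = 0.609). The pools did not group by genotype alone. Across all probe sets KO pool 2 correlated with WT pool 1 at r = 0.994, with KO pool 4 at r = 0.983, and WT pools 9 and 11 correlated at r = 0.991, values across features that are not independent replicates. WT pools 9 and 11 also carried more skin and muscle signal: the 11 measured keratinocyte genes averaged 7.40 and 7.70 in KO pools 2 and 4, against 7.39, 9.55 and 8.80 in WT pools 1, 9 and 11, and the 14 skeletal muscle genes averaged 11.04 and 11.25 in the KO pools, against 10.50, 12.16 and 11.96 in the WT pools. For this reason each member's difference is also given against WT pool 1 alone where that moves it by more than 1.5 times.

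All 10 measured members of the IGF system had a higher mean in KO than in WT nerves, by 0.25 to 0.64 on the log2 scale, and none of these differences passed the test across all probe sets. The share of all probe sets with a higher KO mean was 49.8%. The median log2 fold change was 0.39 over the 10 members and 0.00 over the 10361 probe sets. By limma 0 of 10 members were called at adjusted p below 0.05, where 0.676% of all probe sets were called in either direction. At unadjusted p below 0.05, 5 members (Igfbp6, Igfbp3, Igf2r, Irs2 and Igfbp7) were higher in KO, against 7.14% of all probe sets, and 0 were lower, against 7.17%. In 9 of 10 members both KO pools lay above all 3 WT pools, an ordering found in 17.5% of all probe sets, and in 0 members did both lie below, against 13.3%. The mean over the 10 members was 11.50 and 11.73 in KO pools 2 and 4, against 11.34, 11.07 and 11.24 in WT pools 1, 9 and 11. These counts describe the members present in the table. They are no support for a shift of the system, because the members were chosen with earlier results of these data known. The table also has a lower bound on spread. In every probe set the gap from the lowest to the fourth-ranked of the 5 values was 0.175 or more. Among the members this gap ran from 0.221 to 0.8. In pooled whole nerve, a different number of cells of a type and a different amount of RNA per cell cannot be told apart.

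**Figure D1:**
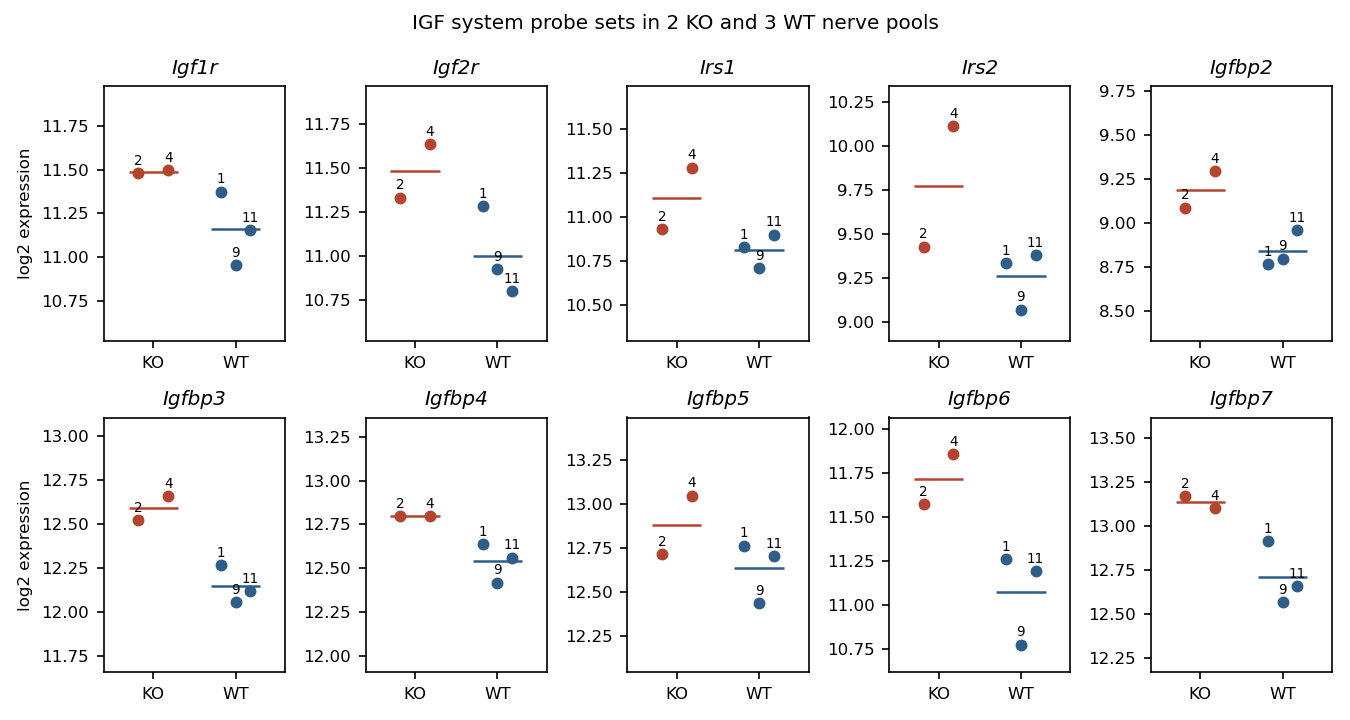
Log2 expression of the 10 measured IGF system probe sets in each pool, with KO pools on the left and WT pools on the right of each panel. Points are single pools marked with their pool number and lines are group means, and every panel spans the same log2 range. Both KO points lie above all WT points in every panel except that of Igfbp5.

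The IGF binding proteins were the largest group, with 6 measured genes whose log2 fold changes ran from 0.25 to 0.64. Their mean level was 11.98 and 12.13 in KO pools 2 and 4, against 11.77, 11.51 and 11.70 in WT pools 1, 9 and 11.

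Igfbp6, which encodes a binding protein that prefers IGF-2 to IGF-1, differed most. It read 11.57 and 11.86 in KO pools 2 and 4, against 11.26, 10.77 and 11.19 in WT pools 1, 9 and 11. The lower KO pool stood 0.31 above the highest WT pool, while the WT pools themselves spanned 0.49. Its mean was 11.72 ± 0.20 (SD, n = 2) in KO and 11.07 ± 0.26 (SD, n = 3) in WT, a 1.56-fold higher level that did not pass (log2 fold change 0.64, SE 0.19, 95% interval 0.26 to 1.03, limma adjusted p = 0.105). In size the difference lay at the 96.4th percentile of the absolute changes of all probe sets. Each KO pool alone was above the WT mean, KO pool 2 by 0.50 and KO pool 4 by 0.78.

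Igfbp3, whose product carries most of the circulating IGFs, read 12.52 and 12.66 in KO pools 2 and 4, against 12.27, 12.06 and 12.12 in WT pools 1, 9 and 11. Its 2 groups did not overlap, and the gap between them (0.25) exceeded the span of the WT pools (0.21), which held for no other member. The log2 fold change was 0.44 (SE 0.17, 95% interval 0.09 to 0.79, adjusted p = 0.223). Igfbp7, which encodes a secreted relative with low affinity for IGFs, read 13.17 and 13.10 in KO pools 2 and 4, against 12.91, 12.57 and 12.66 in WT pools 1, 9 and 11. All WT pools lay below both KO pools, with WT pool 1 nearest to them. The difference was 0.42 (SE 0.17, 95% interval 0.06 to 0.78, adjusted p = 0.261), and 0.22 against WT pool 1 alone.

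Igfbp2, for a binding protein abundant in developing tissues, was the member in which WT pool 1 was the lowest pool. It read 9.09 and 9.29 in KO pools 2 and 4, against 8.77, 8.80 and 8.96 in WT pools 1, 9 and 11 (log2 fold change 0.35, SE 0.17, adjusted p = 0.352). Igfbp4, for an inhibitor of IGF action that the protease PAPP-A cleaves, read 12.80 in both KO pools, against 12.64, 12.42 and 12.56 in WT pools 1, 9 and 11. The groups of these 2 genes did not overlap, and the difference of Igfbp4 was 0.26 (SE 0.17, adjusted p = 0.498) with all WT pools and 0.16 with WT pool 1 alone. Igfbp5, for a binding protein that attaches to extracellular matrix, read 12.72 and 13.05 in KO pools 2 and 4, against 12.77, 12.44 and 12.71 in WT pools 1, 9 and 11. It was the 1 member whose groups overlapped, since WT pool 1 lay above KO pool 2. Its log2 fold change of 0.25 (SE 0.18, adjusted p = 0.544) was 0.12 against WT pool 1 alone, 0.08 without KO pool 4, 0.15 without WT pool 9 and 0.41 without KO pool 2.

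The receptors followed. Igf1r, the signalling receptor for both ligands, read 11.48 and 11.50 in KO pools 2 and 4, against 11.37, 10.96 and 11.15 in WT pools 1, 9 and 11. The KO pools were nearly equal, and the WT pools spanned 0.42. The log2 fold change of Igf1r was 0.33 (SE 0.17, 95% interval -0.04 to 0.69, adjusted p = 0.401), and 0.11 against WT pool 1 alone. Igf2r encodes the cation-independent mannose 6-phosphate receptor, which removes IGF-2 from the cell surface and sorts lysosomal enzymes. It read 11.33 and 11.63 in KO pools 2 and 4, against 11.28, 10.92 and 10.80 in WT pools 1, 9 and 11. KO pool 2 and WT pool 1 were 0.05 apart, with WT pools 9 and 11 well below both. The difference was 0.48 (SE 0.18, 95% interval 0.10 to 0.87, adjusted p = 0.226), and 0.20 against WT pool 1 alone.

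Among the docking proteins KO pool 4 stood apart. Irs2 read 9.43 and 10.11 in KO pools 2 and 4, against 9.33, 9.07 and 9.38 in WT pools 1, 9 and 11. The KO pools differed by 0.69, more than in any other member, and KO pool 2 lay 0.05 above the highest WT pool. The log2 fold change of 0.51 (SE 0.20, 95% interval 0.10 to 0.92, adjusted p = 0.228) was 0.17 without KO pool 4 and 0.85 without KO pool 2. Irs1 read 10.93 and 11.28 in KO pools 2 and 4, against 10.83, 10.71 and 10.90 in WT pools 1, 9 and 11. Its groups were separated by 0.03, and its difference of 0.29 (SE 0.17, adjusted p = 0.454) was 0.12 without KO pool 4 and 0.47 without KO pool 2.

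**Figure D2:**
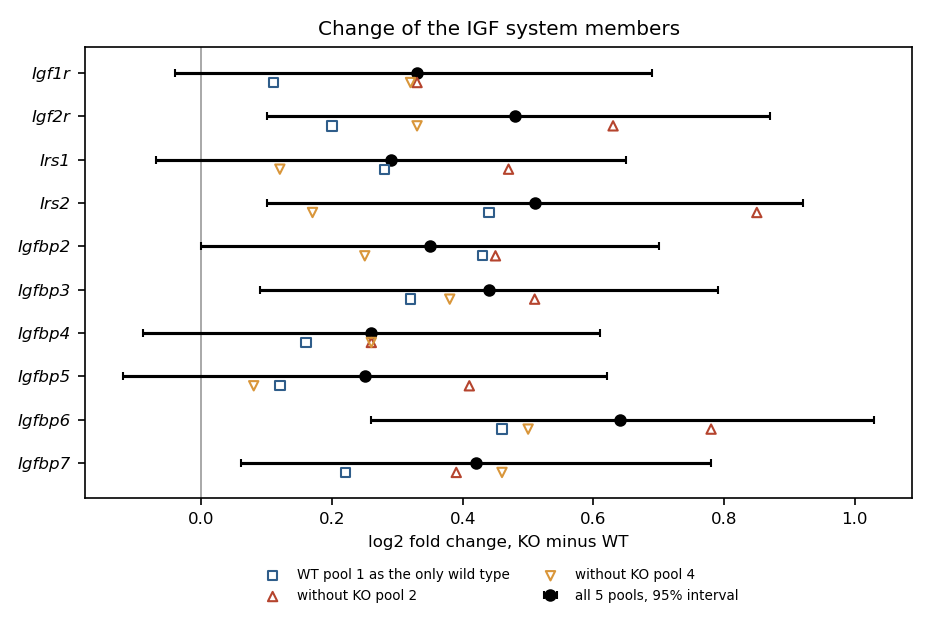
Log2 fold changes (KO minus WT, horizontal axis) of the 10 members, with 95% intervals from limma over all 5 pools (black), and the values with WT pool 1 as the only wild type, without KO pool 2 and without KO pool 4 (open symbols). All values lie above 0, and the values against WT pool 1 alone run from 0.11 for Igf1r to 0.46 for Igfbp6.

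Orders of pools were counted across the members, each order on its own, in a set chosen with earlier results of these data known. KO pool 4 was above KO pool 2 in 8 of 10 members, an order seen in 49.3% of all probe sets. WT pool 9 was the lowest WT pool in 8 of 10, against 28.4% of all probe sets, and WT pool 1 was the highest WT pool in 7 of 10, against 40.4%. Both KO pools lay above WT pool 1 in 9 of 10 members and in 36.7% of all probe sets. These are the same 9 members in which both KO pools lay above all WT pools, so this count adds nothing new. The pair of members with the most alike profiles was Igfbp7 and Igf1r, with a root mean square difference of 0.064 over the 5 pools after each was centred on its own mean. Igfbp7 and Irs2 were the least alike (0.262). By the same measure the 5 genes outside the system most like Igfbp6 were Pdpn (0.041), which encodes the membrane glycoprotein podoplanin, Tnfrsf23 (0.044), for a decoy receptor of the death ligand TRAIL in mice, Mab21l1 (0.049), the amino acid transporter gene Slc38a4 (0.054) and the thrombin receptor gene F2r (0.056). Their log2 fold changes ran from 0.58 to 0.62, and none of the 5 passed (limma adjusted p from 0.109 to 0.152).

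**Figure D3:**
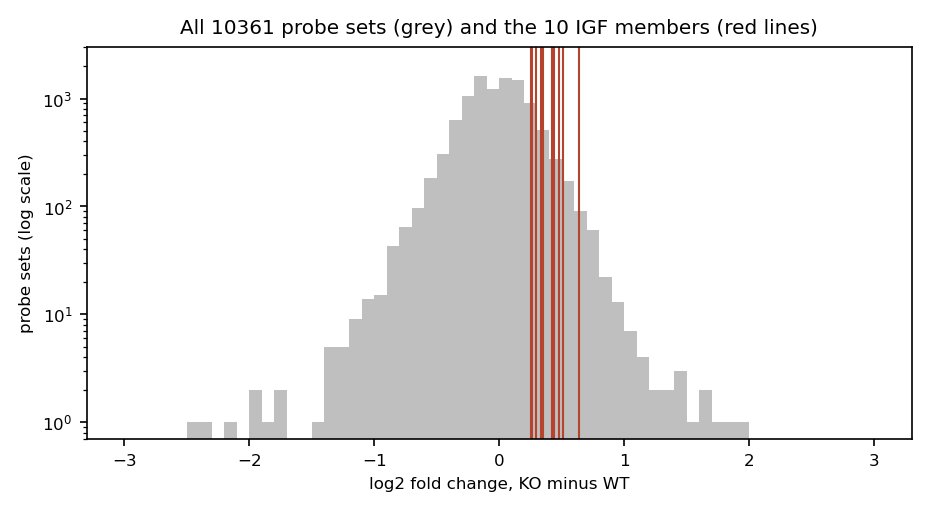
Distribution of the log2 fold changes (KO minus WT) of all 10361 probe sets in bins on a logarithmic count axis (grey), with the 10 IGF members as red lines. The members lie between 0.25 and 0.64, on the right flank and inside the range of the other probe sets.

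The promoters of the system were searched for the core of the motif that early B cell factors bind, written CCCNNGGG, which reads the same on both strands. Windows from 250 bases before to 50 bases after each RefSeq transcription start (GRCm38.p6) were available for all 10 measured members, 11 windows in all. The core was in 2 of the 11 windows (18.2%), those of Igfbp7 and Igf2r, in 17% of the 9190 windows of genes in the value table and in 13.7% of all 32851 windows of the genome. Shown are the 250 bases before the start for both genes with a core match, in capitals, and for Igfbp6, the member with the largest difference, whose window has no match. The match begins at position -71 from the start of Igfbp7 (chr5:77408046-77408295, minus strand) and at position -174 from that of Igf2r (chr17:12769707-12769956, minus strand), and the window of Igfbp6 lies at chr15:102143936-102144185, plus strand. Sequences run 5′ to 3′ on the strand of the gene and are from RefSeq. A match of letters is a description and not a measured binding site.
Igfbp7: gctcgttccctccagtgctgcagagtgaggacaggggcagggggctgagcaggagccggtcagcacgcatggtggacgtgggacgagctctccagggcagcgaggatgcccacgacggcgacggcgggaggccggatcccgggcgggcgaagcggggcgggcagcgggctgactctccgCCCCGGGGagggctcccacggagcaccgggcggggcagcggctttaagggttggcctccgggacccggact
Igf2r: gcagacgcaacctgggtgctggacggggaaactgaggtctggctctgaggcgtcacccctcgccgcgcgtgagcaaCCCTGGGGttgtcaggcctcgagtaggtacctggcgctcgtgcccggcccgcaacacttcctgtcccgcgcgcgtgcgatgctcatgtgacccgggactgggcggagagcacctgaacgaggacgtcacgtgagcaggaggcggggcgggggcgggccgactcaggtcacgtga
Igfbp6: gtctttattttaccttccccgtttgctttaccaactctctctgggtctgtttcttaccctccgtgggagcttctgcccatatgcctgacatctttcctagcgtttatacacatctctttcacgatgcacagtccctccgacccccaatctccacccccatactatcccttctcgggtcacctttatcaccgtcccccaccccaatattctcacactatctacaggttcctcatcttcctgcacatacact
The genes with a match, Igfbp7 at 0.42 and Igf2r at 0.48, lay within the range of the members without one.

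Proteases that release IGFs from their binding proteins, and the inhibitors of these proteases, formed a related list with 9 of 14 genes measured. One of them, Adamts1, rose, 0 fell and 8 did not pass, against 0.347% of all probe sets called higher. Adamts1 encodes a secreted metalloprotease of the extracellular matrix. It read 10.72 and 11.11 in KO pools 2 and 4, against 10.40, 9.70 and 10.01 in WT pools 1, 9 and 11, so the groups did not overlap (log2 fold change 0.88, SE 0.20, limma adjusted p = 0.0445). The call of Adamts1 was lost without each of the 5 pools in turn, with log2 fold changes of 0.69 to 1.08 and adjusted p from 0.0606 to 0.831, and its value against WT pool 1 alone was 0.52. The call was also lost after median centring (adjusted p = 0.376), after quantile normalisation (0.360) and without moderation (0.560). Timp1, which inhibits metalloproteinases, was at 0.50 (SE 0.17, adjusted p = 0.180), and Plat, for tissue plasminogen activator, at 0.26 (SE 0.17, adjusted p = 0.504). Against WT pool 1 alone Timp1 was at 0.35 and Plat at 0.13. The list had a median of 0.18, or 0.04 against WT pool 1 alone. At unadjusted p below 0.05 by limma 2 of its genes were higher, against 7.14% of all probe sets. The gene of PAPP-A itself, Pappa, chosen after its value was seen, was at 0.10 (SE 0.18, adjusted p = 0.792).

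Relatives of the receptors and other partners of IGFs did not pass either. Of 5 measured genes of 11 none was called, and the median was 0.02. At unadjusted p below 0.05 by limma 1 was higher, against 7.14% of all probe sets. Igf2bp1, for a protein that binds Igf2 mRNA, was at 0.38 (SE 0.18, adjusted p = 0.348), Grb14, for an adaptor that inhibits the insulin receptor, at 0.24 (SE 0.17, adjusted p = 0.530), and Igfbpl1 at -0.13 (SE 0.17, adjusted p = 0.715). Against WT pool 1 alone Igf2bp1 was at 0.17, Grb14 at 0.12 and Igfbpl1 at -0.03. The insulin receptor gene Insr, chosen after its value was seen, read 11.02 and 10.55 in KO pools 2 and 4, against 10.85, 10.69 and 10.78 in WT pools 1, 9 and 11. Its KO pools lay on either side of the WT pools, with a log2 fold change of 0.02 (SE 0.18, 95% interval -0.36 to 0.39).

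The PI3-kinase, Akt and mTOR cascade downstream of the receptor differed in both directions. Of 18 measured genes of 32, 0 were called, 7 were higher and 11 lower in KO, with a median of -0.08. At unadjusted p below 0.05 by limma there were 0 higher and 2 lower, against 7.14% and 7.17% of all probe sets. The median turned to 0.06 without KO pool 4 and was -0.17 without KO pool 2. Pik3r3, for a regulatory subunit of PI3-kinase, read 9.67 and 8.79 in KO pools 2 and 4, against 9.93, 9.66 and 9.67 in WT pools 1, 9 and 11 (log2 fold change -0.53, SE 0.21, adjusted p = 0.249). Its low value was that of KO pool 4. Ddit4, which restrains mTOR under stress, was at -0.44 (SE 0.19, adjusted p = 0.282) with all WT pools and at -0.09 with WT pool 1 alone, and Mtor at -0.35 (SE 0.18, adjusted p = 0.376).

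The FoxO factors are shut out of the nucleus when Akt is active, and their target genes are then less expressed. Of 15 measured genes of 20 in the list of FoxO factors and targets, 0 were called, 11 were higher and 4 lower in KO, with a median of 0.13, and at unadjusted p below 0.05 there were 4 higher and 1 lower, against 7.14% and 7.17% of all probe sets. The median was 0.27 without KO pool 2, 0.04 without KO pool 4 and 0.23 with WT pool 1 alone. Both KO pools lay above all WT pools in 7 of the 15 genes and below them in 2, against 17.5% and 13.3% of all probe sets. The 3 with the largest differences were higher in KO with groups that did not overlap. Txnip, for the thioredoxin-interacting protein, read 13.07 and 13.43 in KO pools 2 and 4, against 12.92, 12.49 and 12.67 in WT pools 1, 9 and 11 (log2 fold change 0.56, SE 0.18, adjusted p = 0.152). Foxo1 was at 0.54 (SE 0.19, adjusted p = 0.187) and Ccng2, for cyclin G2, at 0.48 (SE 0.18, adjusted p = 0.204). With WT pool 1 as the only wild type the differences were 0.34 for Txnip and 0.31 for Foxo1. The 4 lower genes, named after their values were seen, were Bnip3 at -0.41, Cdkn1b at -0.37, Trim63 at -0.31 and Sod2 at -0.20. Against WT pool 1 alone these 4 were at -0.14, -0.15, 0.20 and -0.07.

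**Figure D4:**
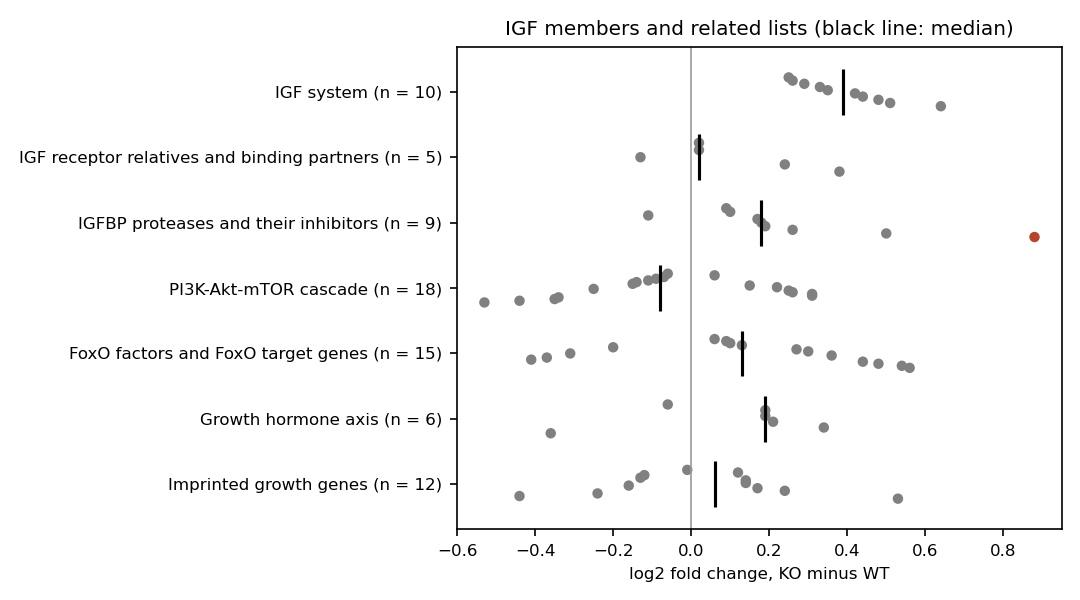
Log2 fold changes (KO minus WT, horizontal axis) of the measured genes of the IGF system and of 6 related lists, 1 point per gene, with the list's median as a black line and genes called at adjusted p below 0.05 in red. Adamts1 (0.88) is the 1 called gene, and the IGF system is the list with no point at or below 0.

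Markers of other cell types also differed between the pools. The 12 measured endothelial genes, of 12 listed, averaged 10.80 and 10.58 in KO pools 2 and 4, against 10.61, 10.20 and 10.12 in WT pools 1, 9 and 11. All 12 had a higher KO mean, against 49.8% of all probe sets, and 0 were called. At unadjusted p below 0.05 by limma 7 were higher, against 7.14% of all probe sets. In 5 of the 12 both KO pools lay above all WT pools, against 17.5%. Their median was 0.43, or 0.14 against WT pool 1 alone. The 9 measured pericyte and smooth muscle genes, of 10 listed, averaged 10.61 and 10.62 in KO pools 2 and 4, against 10.66, 9.93 and 9.71 in WT pools 1, 9 and 11. Here WT pool 1 was as high as the KO pools, and the median of 0.69 was -0.03 against WT pool 1 alone. The 11 measured genes of dividing cells, of 12 listed, averaged 11.06 in both KO pools, against 11.00, 10.49 and 10.46 in WT pools 1, 9 and 11, with a median of 0.45, or 0.10 against WT pool 1 alone.

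Fibroblast genes showed a smaller difference in the same direction. The 6 measured genes, of 12 listed, averaged 11.78 and 11.77 in KO pools 2 and 4, against 11.62, 11.46 and 11.48 in WT pools 1, 9 and 11. Their median was 0.26, or 0.11 against WT pool 1 alone, and 0 were called. All 6 had a higher KO mean, against 49.8% of all probe sets. In 4 of the 6 both KO pools lay above all WT pools, against 17.5% of all probe sets. Schwann cell genes had a lower mean: the 8 measured, of 12 listed, averaged 11.30 and 10.94 in KO pools 2 and 4, against 11.46, 11.58 and 11.49 in WT pools 1, 9 and 11. Of these 2 fell, Egr2, which is required for myelination (log2 fold change -1.13, SE 0.22, adjusted p = 0.0181), and Mag, for the myelin-associated glycoprotein (-0.99, SE 0.19, adjusted p = 0.0166). Directions were mixed, with 6 of the 8 lower and 2 higher in KO, Gfra3 at 0.47 (SE 0.18, adjusted p = 0.214) with groups that did not overlap and Foxd3 at 0.02, both named after their values were seen. The calls of Egr2 and Mag were lost without WT pool 1, WT pool 9, KO pool 2 or KO pool 4 (adjusted p from 0.0914 to 0.831), while the log2 fold changes without each pool in turn ran from -0.65 to -1.62 for Egr2 and from -0.82 to -1.11 for Mag. Both calls were also lost after median centring (adjusted p = 0.364 for each), after quantile normalisation (0.343 for Egr2 and 0.310 for Mag), without moderation (0.560) and with WT pool 1 as the only wild type (0.857). Of 6 measured perineurial genes, of 10 listed, 4 were higher and 2 lower in KO. Their median was 0.29, or 0.22 against WT pool 1 alone. Of these 1 rose, Moxd1, for a monooxygenase (log2 fold change 1.62, SE 0.20, adjusted p = 1.22e-04). Its call was lost without the same 4 pools (adjusted p from 0.0692 to 0.782), after median centring (0.0980), after quantile normalisation (0.125), without moderation (0.560) and with WT pool 1 as the only wild type (0.857), while its log2 fold change without each pool in turn ran from 1.45 to 1.80. The 2 lower genes, named after their values were seen, were Perp at -0.47 (SE 0.32, adjusted p = 0.517), which was at 0.63 with WT pool 1 alone, and Slc2a1, for a glucose transporter, at -0.43 (SE 0.17, adjusted p = 0.228) with groups that did not overlap. No gene was called among 6 adipocyte, 8 macrophage and mast cell and 6 cartilage and tendon genes, with medians of -0.30, 0.12 and 0.03, where 1, 1 and 1 were at unadjusted p below 0.05. The adipocyte median was 0.01 with WT pool 1 alone, and the 6 genes averaged 7.57 and 7.72 in KO pools 2 and 4, against 7.58, 8.27 and 7.96 in WT pools 1, 9 and 11. In none of these lists was the part of the marked cells in the levels of the IGF members tested.

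**Figure D5:**
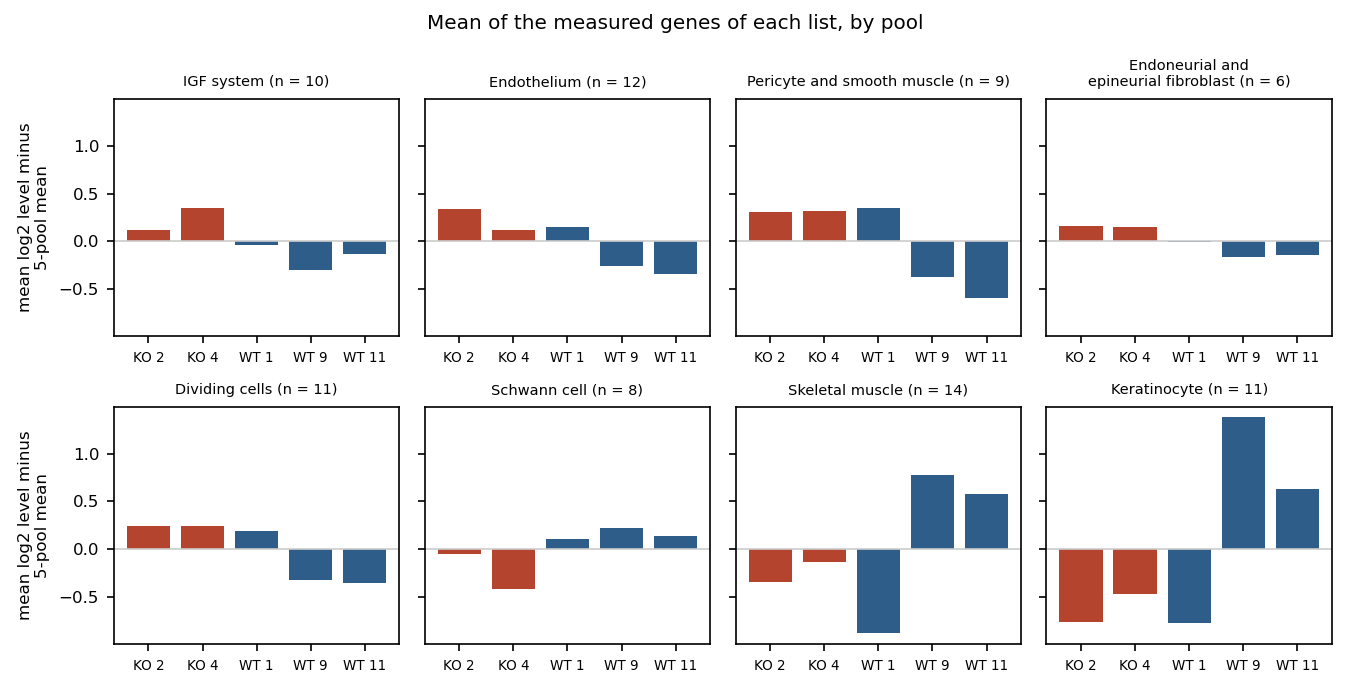
Mean log2 level of the measured genes of the IGF system and of 7 cell type lists in each pool, as the difference from the list's mean over the 5 pools, with KO pools in red on the left and WT pools in blue. The IGF members, the fibroblast genes and the genes of dividing cells are higher in both KO pools than in any WT pool. Pericyte and smooth muscle genes are as high in WT pool 1 as in the KO pools. Keratinocyte genes stand out in WT pools 9 and 11.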

How the data were processed

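Nerve RNA of 5 pools was measured on Affymetrix arrays, 1 array per pool. The authors deposited log2 expression for every probe set. They used RMA, according to the submitters' processing notes; its settings were not given in the sources used here. Array medians were 9.11 and 8.93 in KO pools 2 and 4 and 9.11, 9.09 and 9.04 in WT pools 1, 9 and 11. A lower bound on the spread (0.175 between the fourth-ranked and the lowest value) shows in the deposited log2 table, with no filter stated.

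Symbols were taken from the annotation of the array platform. Of 10361, 9411 had 1 symbol, 384 several and 566 none, and those with several were not named. The gene identifiers of 9400 probe sets with 1 symbol were found in RefSeq, with 0 symbols to update.

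The genotypes were compared on these log2 values without rescaling, using limma 3.58.1 (R 4.3.3, lmFit and eBayes, 3 residual and 17.4 prior degrees of freedom), two-sided, with Benjamini-Hochberg adjustment over all probe sets and calls at adjusted p below 0.05. The fit was tested on simulated data. P-values set each difference against the spread between pools, moderated toward that of all probe sets. This spread may be technical in part, and the number of arrays limits the precision. Named genes are all members, Ebf2, the called genes of each list, the 3 largest differences of each related list and the 5 genes most like Igfbp6, and a few others were named after their values were seen, as stated beside them. The members and lists were chosen with earlier results of these data known. The alternatives were other scalings, other variance estimates, array weights, a filter on low values and leaving out pools.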

Additional observations from a re-analysis of the deposited data

How the results depend on the processing

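Each of the 10 members kept a higher KO mean in every one of the 12 alternatives in which it was measured (Igfbp2 was not kept by the filter on low values). An intensity trend with a robust prior called 4 (Igfbp6, Igfbp3, Igfbp7 and Igf2r) among 318 probe sets called higher and 256 lower, and the filter above the median of probe set means called 1 among 175 higher and 112 lower (Igfbp6, adjusted p = 0.0296, in a range from 0.00261 to 0.857 over its alternatives). The median log2 fold change of the members ran from 0.29 to 0.47 without each pool in turn and was 0.25 with WT pool 1 as the only wild type. Groups that do not overlap numbered 7 after median centring and after quantile normalisation, 9 on the values as they stand, and 9 to 10 without each pool in turn. The share of all probe sets with both KO pools above the WT pools was at most 20.1% after these scalings, 17.5% as they stand and 19.1% to 33.9% without each pool, where fewer pools make the ordering easier to reach. Median centring gave 840 probe sets higher and 392 lower at unadjusted p below 0.05, against 740 and 743 on the values as they stand. By that measure 7 members were higher after median centring, where 8.11% of all probe sets were higher, and 5 as they stand. The count was 6 with the intensity trend and robust prior. It was 5 after quantile normalisation, with array weights, with the filter on low values and without WT pool 1. It fell to 2 without moderation, without WT pool 9 and without WT pool 11. In these 3 settings 2.68%, 2.50% and 3.22% of all probe sets were higher. Fits that leave 1 pool of a genotype are not counted here.

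The number of called probe sets, 70, depended strongly on the setting. It was 1 after median centring, 1 after quantile normalisation, 0 without moderation, 574 with the intensity trend and robust prior, 268 with array weights and 287 with the filter on low values. Without each pool in turn it ran from 0 to 105, and it was 0 with WT pool 1 as the only wild type. Fewer pools leave fewer degrees of freedom, and the cause of the other moves was not tested. No gene of the lists had several probe sets, so averaging them was not run. No paired analysis was possible because KO and WT pools share no pool number. Values near the lower bound on spread limit what the table can show, since genes with less spread are not analysed here.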

Other observations

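Neighbouring genes of the system were set side by side, chosen after their values were seen. Igfbp3 lies next to Igfbp1 on mouse chromosome 11, with no other coding gene between them in RefSeq. Igfbp1 read 7.18 and 7.38 in KO pools 2 and 4, against 7.02, 7.31 and 7.46 in WT pools 1, 9 and 11, with a log2 fold change of 0.02 (SE 0.18, 95% interval -0.36 to 0.39), beside 0.44 (95% interval 0.09 to 0.79) for Igfbp3. With WT pool 1 alone the values were 0.26 for Igfbp1 and 0.32 for Igfbp3. The intervals overlap, and the difference between these 2 genes was not tested. Igfbp2 and Igfbp5 are neighbours on chromosome 1, with log2 fold changes of 0.35 and 0.25. Airn, the noncoding antisense transcript at Igf2r, was at -0.13 (SE 0.17, limma adjusted p = 0.730), beside 0.48 for Igf2r.

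Imprinted growth genes split in direction. Of 12 measured genes of 22, 6 were higher and 6 lower in KO and 0 were called by limma. At unadjusted p below 0.05 there were 1 higher and 1 lower, against 7.14% and 7.17% of all probe sets. Peg10, which derives from a retrotransposon, read 12.58 and 12.64 in KO pools 2 and 4, against 12.28, 11.93 and 12.04 in WT pools 1, 9 and 11 (log2 fold change 0.53, SE 0.17, adjusted p = 0.151). Its difference was 0.34 with WT pool 1 alone. Rtl1, of similar origin, was at -0.44 (SE 0.20, adjusted p = 0.304) with all WT pools and at -0.11 with WT pool 1 alone, and the noncoding RNA gene Meg3 at -0.24 (SE 0.18, adjusted p = 0.559) with all WT pools and at 0.03 with WT pool 1 alone. In the growth hormone axis, which drives Igf1 in the liver, 6 of 10 genes were measured and 0 were called, with 0 at unadjusted p below 0.05. Stat5b was at -0.36 (SE 0.20, adjusted p = 0.422), Socs3 at 0.34 (SE 0.17, adjusted p = 0.372) and Jak2 at 0.21 (SE 0.17, adjusted p = 0.585).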
